A study of Rattus norvegicus with 12 samples.

Results

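The enzymes that carry glucose carbon through glycolysis, pyruvate dehydrogenase and the tricarboxylic acid (TCA) cycle, together with the enzymes of the shuttles that link cytosol and mitochondria, were examined in INS1E cells, an insulin-secreting beta-cell line of the rat. The set held 42 listed genes, chosen by name for their place in the pathway, with earlier results of these data known. Of these, 36 were measured on array features assigned to that gene alone, out of 18166 genes so measured. Tpi1, Gapdh, Eno1 and Pkm lay only on features that name several genes, and with Pgam1 and Fh they were not analysed here at gene level. The compared groups were a clone with a stable human islet amyloid polypeptide transgene (hIAPP), a clone with the rat transgene (rIAPP) and a control clone that carried the pcDNA3 vector. All were kept for 3 days in RPMI medium with 11.1 mM glucose, sodium pyruvate and geneticin. Each clone gave 2 samples, a and b, and the 6 samples were run on 1-colour Affymetrix rat arrays. The labels used here do not name the promoter that drives the transgene or say whether a and b came from separate cultures. Each transgene was present in 1 clone, and effects of the transgene and of the clone cannot be told apart. The p-values therefore cover only the spread between samples of the same clone.

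Glycolysis splits glucose into pyruvate in the cytosol, and phosphofructokinase sets its committed step. Pyruvate dehydrogenase then turns pyruvate into acetyl-CoA, which the TCA cycle oxidises, and kinases of the complex can switch it off. Beta cells use this route to sense glucose: they send most pyruvate to mitochondria, keep lactate dehydrogenase and monocarboxylate transport low, and move cytosolic reducing equivalents inward through the glycerol phosphate and malate-aspartate shuttles. The ATP that results closes potassium channels and starts insulin secretion.

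The promoters of the 4 members with the largest differences between clones are shown because the values below turn on these genes. They are RefSeq sequences of build GRCr8, from 250 bases before to 50 bases after the annotated start, read along the strand of the gene. Capitals mark matches on either strand to ACGTG, the core of hypoxia response elements, and to GGGCGG, a GC box.
Pfkfb2 (chr13:44726922-44727221, minus strand): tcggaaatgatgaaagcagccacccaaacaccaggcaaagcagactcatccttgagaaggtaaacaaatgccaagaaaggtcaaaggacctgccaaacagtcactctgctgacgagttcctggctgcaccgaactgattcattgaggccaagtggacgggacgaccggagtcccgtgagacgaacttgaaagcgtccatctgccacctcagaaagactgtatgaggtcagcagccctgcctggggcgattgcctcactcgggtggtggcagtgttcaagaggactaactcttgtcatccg
Pfkfb3 (chr17:71944683-71944982, plus strand): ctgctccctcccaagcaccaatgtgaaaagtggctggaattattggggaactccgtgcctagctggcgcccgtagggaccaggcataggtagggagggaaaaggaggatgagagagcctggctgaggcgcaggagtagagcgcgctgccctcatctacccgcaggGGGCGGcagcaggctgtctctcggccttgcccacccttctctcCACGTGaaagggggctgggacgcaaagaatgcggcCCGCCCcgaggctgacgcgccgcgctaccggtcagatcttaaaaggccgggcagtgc
Eno2 (chr4:159267171-159267470, minus strand): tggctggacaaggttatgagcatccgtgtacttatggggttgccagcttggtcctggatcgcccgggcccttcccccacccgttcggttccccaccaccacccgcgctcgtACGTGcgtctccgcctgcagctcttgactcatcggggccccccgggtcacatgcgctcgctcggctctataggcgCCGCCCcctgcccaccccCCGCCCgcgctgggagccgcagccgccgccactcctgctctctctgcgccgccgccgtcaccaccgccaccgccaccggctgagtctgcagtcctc
Ldhb (chr4:177177359-177177658, minus strand): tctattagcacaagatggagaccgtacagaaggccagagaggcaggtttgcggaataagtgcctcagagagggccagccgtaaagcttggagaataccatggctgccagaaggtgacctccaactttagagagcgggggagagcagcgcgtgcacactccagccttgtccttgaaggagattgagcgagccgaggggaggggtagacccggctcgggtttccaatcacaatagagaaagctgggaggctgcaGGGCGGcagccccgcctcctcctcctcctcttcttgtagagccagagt

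Pfkfb2 held neither motif in this window. Pfkfb3 held 2 GC boxes and 1 CACGTG, the E-box, which contains ACGTG on both strands. Eno2 held 1 ACGTG and 2 GC boxes, and Ldhb held 1 GC box. Over the 36 promoter windows of the 34 members that have one in the table, 36.1% held ACGTG on either strand, against 26.3% of the windows of genes at or above the median brightness and 19.3% of all 33469 windows. GGGCGG was in 66.7% of the members' windows, against 63.7% of those of bright genes and 33.1% of all. CACGTG, whose matches also count as ACGTG, was in 11.1% of the members' windows, against 9.88% of those of bright genes. CCAAT was in 47.2% of the members' windows, against 38.1% of those of bright genes. TATAAA was in the Dld window alone among members, 2.78% of theirs, against 6.1% of those of bright genes. A match describes the letters in the window and says nothing of a factor's binding.

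All values are log2 as the authors deposited them, after robust multi-array averaging (RMA), and a difference of 1 is a doubling. The arrays were alike in scale, with medians from 8.44 to 8.46, with correlations of 0.9987 to 0.999 between samples of a clone and of 0.9934 to 0.9955 between samples of different clones. Of the 16 listed beta-cell markers, 13 were measured and all 13 were at or above the median brightness of all genes. Ins1 and Ins2, the rat insulin genes, differed from control by -0.57 and -0.74 in the hIAPP clone (adjusted p = 0.00243 and 0.0131), and by -0.51 and -0.64 in the rIAPP clone (adjusted p = 0.00565 and 0.0269). The beta-cell markers moved in both directions. In hIAPP 5 were lower than in control (Ins1, Ins2, Isl1, Nkx6-1 and Pax6) and 3 higher (Mafa, Kcnj11 and Slc30a8), and in rIAPP 3 were lower (Ins1, Ins2 and Isl1) and 3 higher (Mafa, Kcnj11 and Slc2a2). No delta or PP, acinar, fibroblast, endothelial or leukocyte marker reached that median. Among alpha-cell markers Gcg, the glucagon gene, was above it, at 14.11, 13.93 and 13.94 in the hIAPP, rIAPP and control clones, and among ductal markers Krt7 was. Of the 27 measured markers of other cell types, 2 were called higher in hIAPP than in control, Gcg by 0.17 (adjusted p = 0.0419) and the leukocyte marker Csf1r by 0.30 (adjusted p = 0.0387). The leukocyte marker Cd68 was called higher in rIAPP than in control, by 0.37 (adjusted p = 0.00804), and Gcg in hIAPP than in rIAPP, by 0.18 (adjusted p = 0.0497). The part of other cell types in the values below was not tested, and in bulk RNA fewer cells of a type and less RNA per cell cannot be told apart. Of the 36 pathway genes, 35 were at or above the median brightness, which also reflects probe affinity, and Aldoc was just under it, at percentile 47.15. The median SD between the samples of a clone was 0.0246 in hIAPP, 0.0251 in rIAPP and 0.0218 in control.

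Changes in the pathway were modest, and glycolysis held more calls than any other group of its steps. Against control, 6 members were higher and 4 lower in the hIAPP clone at a Benjamini-Hochberg adjusted p under 0.05 in limma's moderated test fitted over all 18166 genes. That is 27.8% of the 36, beside 19.1% of all genes (10.1% higher and 8.93% lower) and 28.1% of the genes at or above the median brightness. In the rIAPP clone 6 members were higher and 3 lower than in control, 25% of the 36, beside 16% of all genes (8.7% higher and 7.3% lower) and 23.5% of the bright ones. Between the clones, 2 members were higher and 2 lower in hIAPP than in rIAPP, 11.1% of the 36, beside 11.7% of all genes (6.11% higher and 5.56% lower) and 17.5% of the bright ones. The share of members called was thus close to that of genes at or above the median brightness against control and under it between the clones. With an intensity trend in the variances, the share between the clones was 30.6% of members beside 16.6% of all genes. The share of bright genes was not counted under that setting. In a fit of bright genes alone, the share between the clones was 28.6% of members beside 29.4% of those genes. Differences were small: the largest was 0.56 in hIAPP and 0.51 in rIAPP against control and 0.42 between the clones, and 0 members differed by 1 or more. The median difference of the members was 0.04 in hIAPP and 0.04 in rIAPP against control and -0.02 between the clones, where all genes had medians of -0.01, 0.00 and -0.01. The samples did not overlap in 27 members between hIAPP and control, in 24 between rIAPP and control and in 25 between the clones, where 57.8%, 60.5% and 52.9% of all genes did not overlap. The comparisons against control use the same 2 control arrays.

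Single arrays moved these counts, and the counts over all genes with them. For hIAPP against control, 2 members were higher and 4 lower without control a, 16.7% beside 11% of all genes, and 2 higher and 2 lower without control b, 11.1% beside 12.4%. Without hIAPP a 5 were higher and 2 lower, and without hIAPP b 4 were higher and 3 lower, each 19.4% of members, beside 12.9% and 14.2% of all genes. For rIAPP against control, 2 were higher and 1 lower without control a, rIAPP a or rIAPP b, 3 higher and 1 lower without control b, and 6 higher and 2 lower without either hIAPP array. The members' share was 8.33% without control a, rIAPP a or rIAPP b, beside 7.51%, 7.39% and 6.74% of all genes, 11.1% beside 9.13% without control b, and 22.2% beside 15.8% without either hIAPP array. Between the clones, 1 was higher without any array, and 2 were lower without either control array against 1 without any of the others, which is 8.33% beside 9.8% of all genes and 5.56% beside 5.08% to 7.64%.

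**Figure D1:**
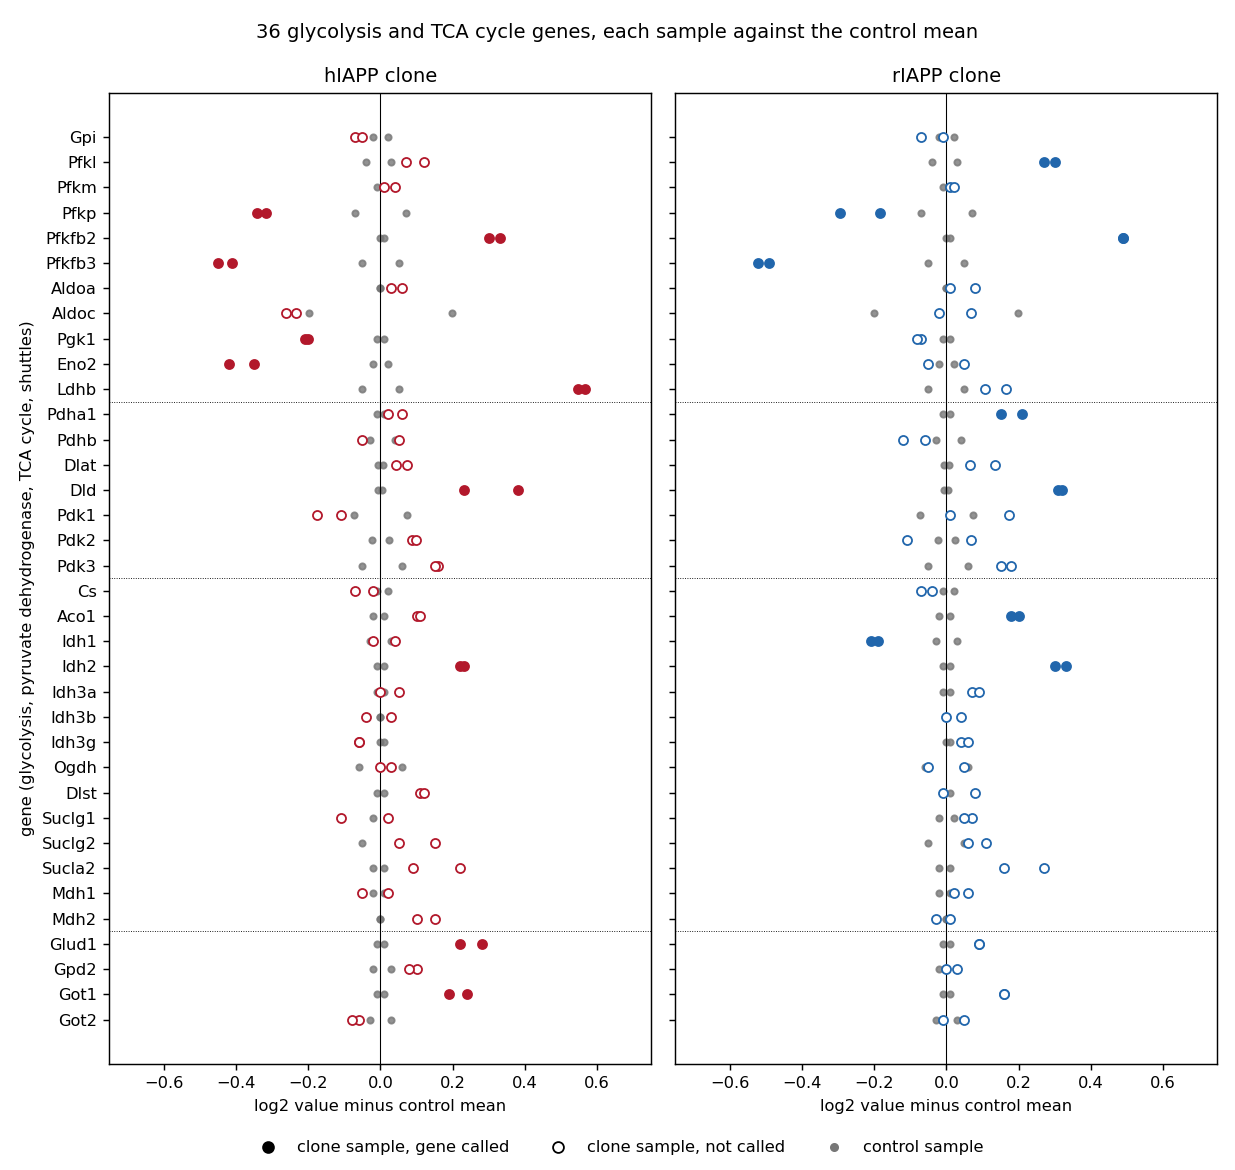
Log2 value of each sample minus the mean of the 2 control samples (x axis) for the 36 measured genes (y axis), ordered from glycolysis to the shuttles, with dotted lines between the groups of steps. Coloured points are samples of the hIAPP clone (left) and the rIAPP clone (right), filled where the gene was called against control, and grey points are the control samples. Pfkfb2, Pfkfb3 and Ldhb lie farthest from 0 while most TCA cycle genes lie close to it.

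Glycolysis held the largest differences of the set and most of those that fell. In the hIAPP clone 2 of its 11 measured members were higher and 4 lower than in control, and in the rIAPP clone 2 were higher and 2 lower. Between the clones 1 was higher and 2 were lower in hIAPP. The share called was 54.55% in hIAPP and 36.36% in rIAPP against control, and 27.27% between the clones. Beside these stood 19.1%, 16% and 11.7% of all genes, and 28.1%, 23.5% and 17.5% of the bright ones.

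The bifunctional enzymes that make and degrade a fructose bisphosphate, an allosteric activator of phosphofructokinase, moved in opposite directions. Pfkfb2, the isoform known from heart and islets, was at 11.55 and 11.52 in the hIAPP samples, 11.71 and 11.71 in the rIAPP samples, and 11.22 and 11.23 in the control samples. All 4 samples of the IAPP clones were above both control samples, and rIAPP was above hIAPP. Pfkfb2 rose by 0.31 ± 0.0459 in hIAPP (SE, n = 2 samples per clone, adjusted p = 0.00332 in limma) and by 0.49 ± 0.0459 in rIAPP (adjusted p = 0.000525), the largest rise of the set in that clone, a fold of 1.41. Its 21 exon-level probe sets at or above the median brightness were all higher in both IAPP clones, from 0.02 to 0.77 in hIAPP and from 0.17 to 1.20 in rIAPP. These probe sets were read on the arrays that gave the gene-level values, so they add no replicates. Pfkfb2 was also lower in hIAPP than in rIAPP by limma (-0.18, adjusted p = 0.0455), a call lost without any 1 of the 6 arrays (adjusted p from 0.0777 to 0.187). With medians of exon-level probe sets the hIAPP call against control was lost (adjusted p = 0.091). Here and below, these medians were taken over the levels of all probe sets of a gene in each array. Their difference can thus depart from the median of the probe sets' own differences. Neighbours of a gene were taken among the measured genes at or above the median brightness. The median difference of the 50 nearest on the chromosome of Pfkfb2 was -0.01 in hIAPP and 0.05 in rIAPP.

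Pfkfb3, the isoform with high kinase activity that growth signals and hypoxia are known to induce, was at 10.50 and 10.54 in the hIAPP samples, 10.46 and 10.43 in the rIAPP samples, and 11.00 and 10.90 in the control samples. The 4 samples of the IAPP clones were close together, below both control samples. Pfkfb3 fell by 0.43 ± 0.0528 in hIAPP (SE, adjusted p = 0.00142 in limma) and by 0.51 ± 0.0528 in rIAPP (adjusted p = 0.000883), the largest fall of the set in each clone, while hIAPP and rIAPP differed by 0.07 (95% interval -0.05 to 0.20, adjusted p = 0.457). Its probe sets were lower in 14 of 14 for hIAPP and in 13 of 14 for rIAPP. The 50 nearest bright genes had median differences of -0.18 in hIAPP and -0.13 in rIAPP. With those subtracted, Pfkfb3 was still called, at -0.25 in hIAPP (adjusted p = 0.0179) and at -0.37 in rIAPP (adjusted p = 0.0047). With medians of exon-level probe sets the hIAPP difference was -0.26 (adjusted p = 0.164) and the call was lost. The median of the 14 probe-set differences of Pfkfb3 in hIAPP was -0.48.

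Of the phosphofructokinase isoforms, each a subunit of the enzyme, Pfkp, the platelet type, was at 9.77 and 9.79 in the hIAPP samples, 9.93 and 9.82 in the rIAPP samples, and 10.04 and 10.18 in the control samples. All IAPP samples were below control. Pfkp fell by 0.33 ± 0.065 in hIAPP (SE, adjusted p = 0.0114 in limma), with 12 of 14 probe sets lower, and the call was lost without control b (adjusted p = 0.0649) and without hIAPP a (adjusted p = 0.0616). In rIAPP it fell by 0.24 (adjusted p = 0.0454), with 13 of 14 probe sets lower, and that call was lost without any 1 of the 6 arrays (adjusted p from 0.0517 to 0.229). Pfkp lies on chromosome 17 with Pfkfb3, and the pair share 35 of their 50 nearest bright genes. The neighbours of Pfkp had medians of -0.17 in hIAPP and -0.13 in rIAPP. With those medians subtracted, Pfkp was no longer called, at -0.16 in hIAPP (adjusted p = 0.179) and at -0.11 in rIAPP (adjusted p = 0.337). Pfkl, the liver type, rose by 0.29 ± 0.0515 in rIAPP (adjusted p = 0.0103), with 16 of 17 probe sets higher, and differed by 0.09 in hIAPP (adjusted p = 0.266). With medians of exon-level probe sets the rIAPP difference of Pfkl was 0.12 (adjusted p = 0.488) and the call was lost. The median of its 17 probe-set differences in rIAPP was 0.23. The rIAPP call of Pfkl was lost without control a, rIAPP a or rIAPP b (adjusted p = 0.0691, 0.0705 and 0.056). Pfkm, the muscle type, differed from control by 0.02 in hIAPP (95% interval -0.09 to 0.13) and by 0.01 in rIAPP (-0.10 to 0.12).

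**Figure D2:**
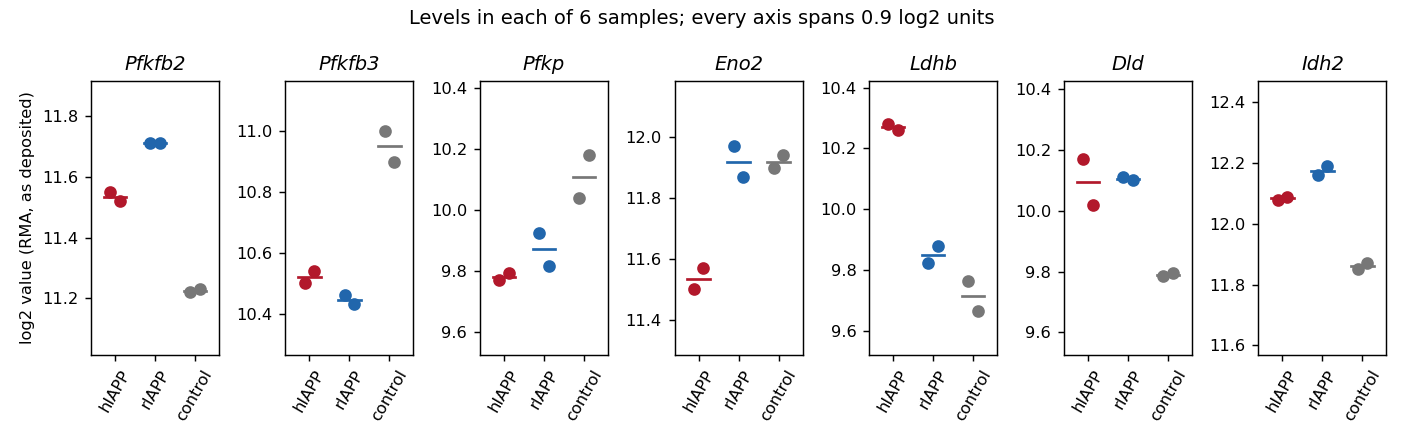
Log2 level (y axis) of the 7 members with a called difference of at least 0.3 in each of the 6 samples (points), with the mean of each clone (bar), for hIAPP, rIAPP and control. Each panel spans the same range of 0.9 log2 units. Pfkfb2, Dld and Idh2 are higher and Pfkfb3 and Pfkp lower in both IAPP clones than in control, while Eno2 and Ldhb set the hIAPP clone apart from the other clones.

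The largest differences between the IAPP clones were at the end of glycolysis. Ldhb, the lactate dehydrogenase subunit that favours the conversion of lactate to pyruvate, was at 10.28 and 10.26 in the hIAPP samples, 9.82 and 9.88 in the rIAPP samples, and 9.76 and 9.66 in the control samples. Both hIAPP samples stood above the other 4. Ldhb rose by 0.56 ± 0.0545 in hIAPP against control (SE, adjusted p = 0.000494 in limma), a fold of 1.47 and the largest difference of the set, and was 0.42 higher in hIAPP than in rIAPP (adjusted p = 0.00298). In rIAPP it differed from control by 0.14 (95% interval 0.01 to 0.26, adjusted p = 0.139). All 8 bright probe sets were higher in hIAPP than in control, by 0.42 to 0.89. The 43 nearest bright genes had a median difference of 0.31 in hIAPP and 0.14 in rIAPP. Their part in the level of Ldhb was not tested. With the neighbours' median subtracted, Ldhb was still called in hIAPP against control, at 0.24 (adjusted p = 0.0169), and between the clones, at 0.25 (adjusted p = 0.0244). An ordinary linear model lost the call between the clones (adjusted p = 0.0664).

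Eno2, the neuronal and endocrine enolase, was at 11.50 and 11.57 in the hIAPP samples, 11.97 and 11.87 in the rIAPP samples, and 11.90 and 11.94 in the control samples. Both hIAPP samples were below the other 4, and rIAPP and control overlapped. Eno2 fell by 0.39 ± 0.0574 in hIAPP against control (SE, adjusted p = 0.00345 in limma), a fold of 0.766, and was 0.39 lower than in rIAPP (adjusted p = 0.00525). In rIAPP the difference from control was 0.00 (95% interval -0.13 to 0.14). All 8 probe sets were lower in hIAPP than in control, with differences of -0.48 to -0.28, and in rIAPP 4 were higher and 4 lower. Eno2 lies on the same chromosome as Ldhb, with 0 neighbours shared. Its 50 nearest bright genes had a median of 0.25 in hIAPP and 0.11 in rIAPP, the opposite side from the gene itself in hIAPP. With those medians subtracted, the hIAPP difference of Eno2 from control was -0.63 (adjusted p = 0.000382). An ordinary linear model lost the call of Eno2 against control (adjusted p = 0.0616) and between the clones (adjusted p = 0.084), and exon-level medians the one between the clones (adjusted p = 0.0593).

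Pgk1, phosphoglycerate kinase, averaged 11.35 ± 0.00717 in hIAPP, 11.48 ± 0.00904 in rIAPP and 11.56 ± 0.0182 in control (SD, n = 2 each). It fell by 0.21 ± 0.0459 in hIAPP (SE, adjusted p = 0.0186 in limma), with 9 of 9 probe sets lower, and differed by -0.08 in rIAPP (adjusted p = 0.306). With medians of exon-level probe sets the hIAPP difference of Pgk1 was -0.02 (adjusted p = 0.928) and the call was lost. The median of its 9 probe-set differences in hIAPP was -0.20, near the gene-level value. The hIAPP call was lost without control a, control b, hIAPP a or hIAPP b (adjusted p = 0.101, 0.0655, 0.0668 and 0.0555). Gpi, the isomerase at the head of the pathway, and the aldolases Aldoa and Aldoc were called in no comparison. Aldoc had the widest spread of any member, at 8.02 and 7.99 in hIAPP, 8.32 and 8.23 in rIAPP, and 8.05 and 8.45 in control. Its difference of -0.25 in hIAPP had a 95% interval of -0.52 to 0.02. Tpi1, triose phosphate isomerase, had no gene-level row of its own, and its 4 exon-level probe sets had differences from control of -0.14 to -0.01 in hIAPP and of -0.03 to 0.33 in rIAPP.

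**Figure D3:**
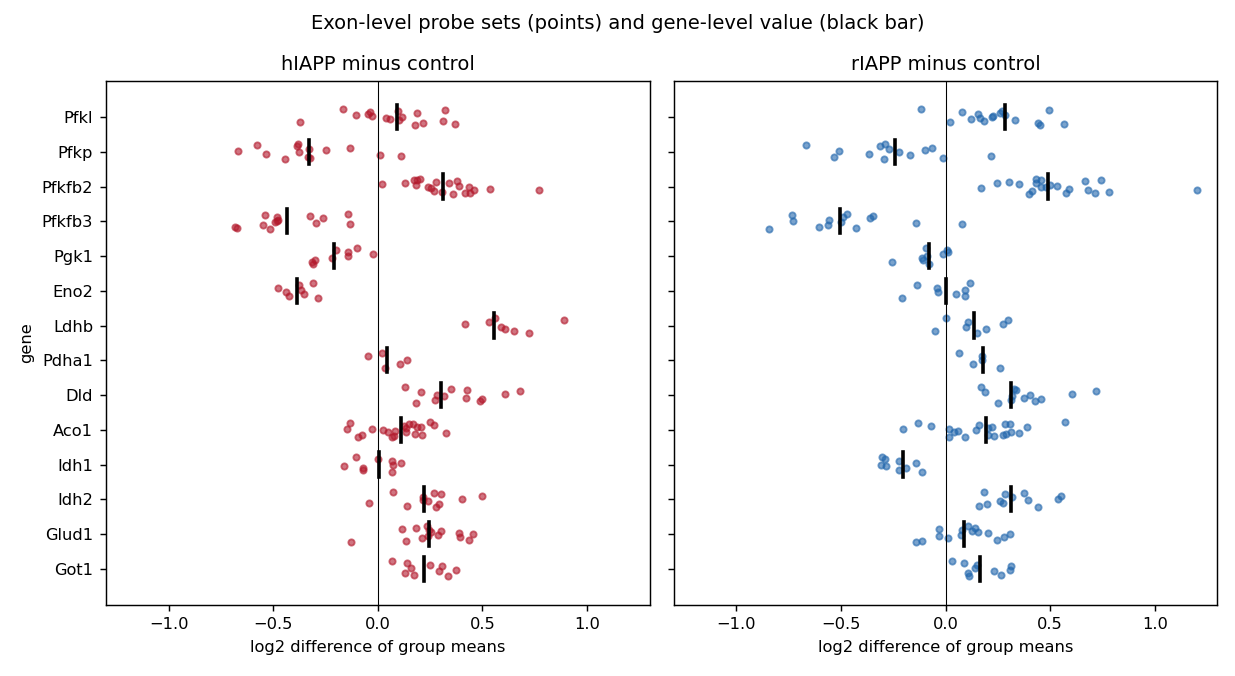
Difference from control on the log2 scale (x axis) of each exon-level probe set at or above the median brightness (points) for the 14 members called in at least 1 comparison (y axis), in hIAPP (left) and rIAPP (right). The black bar is the gene-level difference. All points of Pfkfb2 and Dld lie above 0 in both clones, and all those of Ldhb lie above and of Eno2 below 0 in hIAPP but not in rIAPP.

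Among the 7 measured genes of pyruvate dehydrogenase and its kinases, 1 was higher in hIAPP and 2 in rIAPP than in control. That is 14.29% in hIAPP and 28.57% in rIAPP, beside 19.1% and 16% of all genes. In limma 0 were lower in either, also at an unadjusted p under 0.05, and 0 were called between the clones, where 2 were lower in hIAPP at an unadjusted p under 0.05. Dld, the dihydrolipoamide dehydrogenase that pyruvate dehydrogenase shares with the oxoglutarate and branched-chain complexes, was at 10.17 and 10.02 in the hIAPP samples, 10.11 and 10.10 in the rIAPP samples, and 9.78 and 9.80 in the control samples. All 4 IAPP samples were above both control samples, and the IAPP clones overlapped. Dld rose by 0.30 ± 0.06 in hIAPP (SE, adjusted p = 0.012 in limma) and by 0.32 ± 0.06 in rIAPP (adjusted p = 0.0129), with 13 of 13 probe sets higher in each clone. Both calls needed both control arrays: without control a the adjusted p was 0.0656 in hIAPP and 0.0689 in rIAPP, and without control b it was 0.0544 and 0.0574. In rIAPP the call was also lost without rIAPP a (adjusted p = 0.0721) and without rIAPP b (adjusted p = 0.0773). Its neighbours had medians of 0.01 in hIAPP and 0.06 in rIAPP.

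Pdha1, the catalytic alpha subunit of the complex, averaged 11.65 ± 0.0289 in hIAPP, 11.79 ± 0.0377 in rIAPP and 11.61 ± 0.0185 in control (SD, n = 2 each). It was 0.18 ± 0.0489 higher in rIAPP than in control (SE, adjusted p = 0.0455 in limma), with 5 of 5 probe sets higher, a call lost without any 1 of the 6 arrays (adjusted p from 0.0541 to 0.217). In hIAPP its difference was 0.05 (95% interval -0.07 to 0.16). The beta subunit Pdhb and the acetyltransferase Dlat were not called, with differences of -0.00 and 0.05 in hIAPP and -0.09 and 0.10 in rIAPP. The kinases that inactivate the complex, Pdk1, Pdk2 and Pdk3, were not called either. Pdk3 differed by 0.15 in hIAPP (95% interval 0.03 to 0.28, adjusted p = 0.0931) and by 0.16 in rIAPP (0.04 to 0.29, adjusted p = 0.0844). Pdk1, a gene that hypoxia is known to induce, was 0.23 below rIAPP in hIAPP (interval -0.41 to -0.06, adjusted p = 0.0982), with 9 of 9 probe sets on that side.

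Of 14 TCA cycle genes measured, 1 was higher in hIAPP than in control, and 2 were higher and 1 lower in rIAPP. That is 7.14% in hIAPP and 21.43% in rIAPP, beside 19.1% and 16% of all genes and 28.1% and 23.5% of bright ones. Idh2, the mitochondrial isocitrate dehydrogenase that makes NADPH, was at 12.08 and 12.09 in the hIAPP samples, 12.16 and 12.19 in the rIAPP samples, and 11.85 and 11.87 in the control samples. Every IAPP sample was above both control samples. Idh2 rose by 0.31 ± 0.0467 in rIAPP (SE, adjusted p = 0.00448 in limma) and by 0.22 ± 0.0467 in hIAPP (adjusted p = 0.015), with 12 of 12 and 11 of 12 probe sets higher. The rIAPP call held without any 1 array (adjusted p up to 0.0434), and the hIAPP call was lost without control a, control b or hIAPP b (adjusted p = 0.0873, 0.0565 and 0.0577). Its neighbours had medians of 0.02 in hIAPP and 0.08 in rIAPP.

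Idh1, the cytosolic NADPH-producing counterpart, went the other way in the rIAPP clone. It averaged 12.31 ± 0.0423 in hIAPP, 12.10 ± 0.0187 in rIAPP and 12.30 ± 0.0448 in control (SD, n = 2 each). It fell by 0.20 ± 0.051 in rIAPP (SE, adjusted p = 0.0358 in limma), with 9 of 9 probe sets lower, and was 0.21 higher in hIAPP than in rIAPP (adjusted p = 0.0396). The difference between hIAPP and control was 0.01 (95% interval -0.11 to 0.13). The rIAPP call was lost without control a, control b, rIAPP a or rIAPP b (adjusted p = 0.176, 0.075, 0.157 and 0.129), and the call between the clones without any 1 of the 6 arrays (adjusted p from 0.0584 to 0.184). Aco1, the cytosolic aconitase that doubles as an iron sensor, averaged 11.35 ± 0.0108 in hIAPP, 11.43 ± 0.0154 in rIAPP and 11.24 ± 0.0213 in control (SD, n = 2 each). It rose by 0.19 ± 0.0464 in rIAPP (SE, adjusted p = 0.0295 in limma), with 19 of 22 probe sets higher, and the call was lost without control a, control b, rIAPP a or rIAPP b (adjusted p = 0.0983, 0.129, 0.14 and 0.119). In hIAPP it differed by 0.11 (adjusted p = 0.158).

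The members confined to the mitochondrial cycle other than Idh2 were not called: citrate synthase Cs, the NAD-linked isocitrate dehydrogenase subunits Idh3a, Idh3b and Idh3g, the oxoglutarate dehydrogenase parts Ogdh and Dlst, the succinyl-CoA ligase subunits Suclg1, Suclg2 and Sucla2, and malate dehydrogenase Mdh2, with its cytosolic counterpart Mdh1. The 13 uncalled TCA cycle genes differed from control by -0.06 to 0.16 in hIAPP, with 95% intervals reaching from -0.18 to 0.31, and the 11 uncalled ones in rIAPP by -0.06 to 0.22, with intervals from -0.17 to 0.37. Uncalled genes may thus differ from control by any amount within their intervals. Sucla2, the ATP-forming subunit, came nearest to a call. It was 0.22 higher in rIAPP than in control (adjusted p = 0.0538) and 0.16 higher in hIAPP (adjusted p = 0.128), and all 10 of its bright probe sets were higher in each clone. Idh3g had 12 of 12 probe sets lower in hIAPP than in control, though its gene-level difference was -0.06 (adjusted p = 0.415).

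Among the 4 shuttle and anaplerotic enzymes, 2 were higher in hIAPP than in control, 50% of this small group beside 19.1% of all genes. In limma 0 were called in rIAPP against control or between the clones, where at an unadjusted p under 0.05 it was 1 in each, Got1 in rIAPP and Glud1 between the clones, both higher. Glud1, the glutamate dehydrogenase that feeds oxoglutarate into the cycle and is known to amplify insulin secretion, averaged 12.66 ± 0.0408 in hIAPP, 12.50 ± 0.00437 in rIAPP and 12.41 ± 0.0175 in control (SD, n = 2 each). It rose by 0.25 ± 0.0481 in hIAPP (SE, adjusted p = 0.0113 in limma), with 14 of 15 probe sets higher, and differed by 0.09 in rIAPP (adjusted p = 0.257). Its 50 nearest bright genes had a median difference of 0.27 in hIAPP and 0.12 in rIAPP. Against that median the hIAPP difference turned to -0.02 (adjusted p = 0.806). The call was also lost without control a, control b or hIAPP a (adjusted p = 0.0512, 0.0643 and 0.0555). Got1, the cytosolic aspartate aminotransferase of the malate-aspartate shuttle, averaged 11.26 ± 0.0322 in hIAPP, 11.20 ± 0.00361 in rIAPP and 11.04 ± 0.0123 in control (SD, n = 2 each). It rose by 0.22 ± 0.0469 in hIAPP (SE, adjusted p = 0.0164 in limma), with 10 of 10 probe sets higher, a call lost without control a, control b or hIAPP b (adjusted p = 0.0703, 0.081 and 0.0671). In rIAPP it was 0.16 higher (adjusted p = 0.0546), also with 10 of 10 probe sets higher. The mitochondrial partner Got2 differed by -0.07 in hIAPP and 0.02 in rIAPP, and neither was called.

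Gpd2, the mitochondrial glycerol phosphate dehydrogenase that is abundant in beta cells, was not called, at 0.09 in hIAPP (95% interval -0.02 to 0.20) and 0.01 in rIAPP (-0.10 to 0.12). Its cytosolic partner Gpd1, which is not a member of the set, fell in both clones. Gpd1 was at 11.59 and 11.59 in the hIAPP samples, 11.51 and 11.50 in the rIAPP samples, and 12.37 and 12.20 in the control samples. All IAPP samples were below control, by 0.70 ± 0.0647 in hIAPP (SE, adjusted p = 0.000378 in limma) and by 0.78 ± 0.0647 in rIAPP (adjusted p = 0.000293), and both calls held under all 16 alternative settings.

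**Figure D4:**
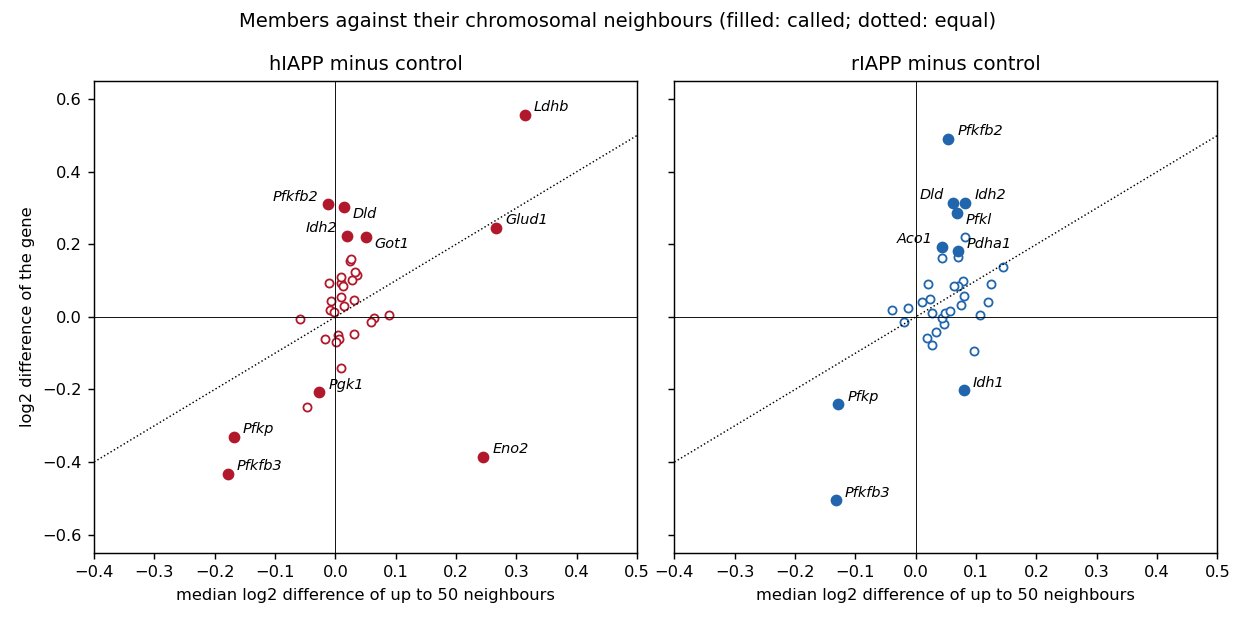
Difference from control on the log2 scale of each of the 36 members (y axis), in hIAPP (left) and rIAPP (right). The x axis is the median difference of up to 50 nearest genes on its chromosome at or above the median brightness. Filled points were called against control, and the dotted line marks equal values. Glud1 lies near the line in hIAPP, Eno2 far below it, and Pfkp and Pfkfb3 have neighbours below 0 in both clones.

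By pattern, Dld and Idh2 were called higher and Pfkp and Pfkfb3 lower in both IAPP clones with no call between them, and Pfkfb2 was higher in both with a further call between them. Ldhb, higher, and Eno2, lower, were called in hIAPP against each of the other clones. Idh1 was called in rIAPP against each of the others. Glud1 and Got1, higher, and Pgk1, lower, were called in hIAPP against control alone, and Pfkl, Pdha1 and Aco1, higher, in rIAPP against control alone. For those 6 the difference between the clones itself was not called, with adjusted p from 0.0554 for Pfkl to 0.539 for Got1. The remaining 22 members were called in no comparison.

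Outside the set, genes of glucose entry and glycolysis included larger single differences. Of 28 listed, 24 were measured; 6 were higher and 2 lower in hIAPP than in control, 6 higher and 4 lower in rIAPP than in control, and 3 higher and 1 lower in hIAPP than in rIAPP. Their medians were -0.01, 0.01 and 0.03. For this list and those below, the shares of all genes called were 19.1%, 16% and 11.7% in the same order of comparisons. Of the genes at or above the median brightness they were 28.1%, 23.5% and 17.5%. Slc16a7, a monocarboxylate transporter at percentile 49.2 of brightness, was 0.89 lower in rIAPP than in control (adjusted p = 0.000123 in limma). It was 0.69 higher in hIAPP than in rIAPP (adjusted p = 0.000616), with -0.21 in hIAPP against control (adjusted p = 0.0561). Slc16a1, another such transporter at percentile 42.84, was called higher than control in each IAPP clone. Its differences were 0.40 (hIAPP, adjusted p = 0.01005) and 0.38 (rIAPP, adjusted p = 0.01516). Those calls were kept in 11 and 8 of 15 alternative settings. Slc16a3, of the same kind and at percentile 41.21, was 0.21 lower in hIAPP than in control (adjusted p = 0.0465). Its rIAPP difference of -0.18 was not called. Pklr, the liver-type pyruvate kinase, a glucose-induced gene in beta cells, was 0.55 lower in rIAPP (adjusted p = 0.000376) and 0.18 lower in hIAPP (adjusted p = 0.0354) than in control, the second lost without any 1 of the 6 arrays (adjusted p up to 0.154). Slc2a1, the glucose transporter GLUT1, rose by 0.49 in hIAPP (adjusted p = 0.00195) and by 0.43 in rIAPP (adjusted p = 0.00468). Slc2a2, the GLUT2 transporter of rodent beta cells, was 0.14 higher in hIAPP (adjusted p = 0.115) and 0.19 higher in rIAPP (adjusted p = 0.047), a call lost without any 1 array (adjusted p from 0.0544 to 0.212). Hexokinase Hk2, which beta cells normally keep low, was at percentile 24.53 of brightness and differed from control by -0.02 in hIAPP and by -0.01 in rIAPP. Ldha, the lactate dehydrogenase subunit that favours lactate and is normally kept low in beta cells, was at percentile 43.42. It was 0.25 higher in hIAPP (adjusted p = 0.0423), a call lost without 5 of the 6 arrays (adjusted p up to 0.196), the exception being control b, and 0.14 higher in rIAPP (adjusted p = 0.228). Hk1 and Pcx were not analysed here.

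In the reverse direction, 5 of 8 gluconeogenic genes were measured, and 3 were higher in hIAPP and 2 in rIAPP than in control, with 1 higher and 1 lower between the clones and medians of 0.36, 0.24 and 0.05. Pck2, the mitochondrial phosphoenolpyruvate carboxykinase, rose by 0.36 in hIAPP (adjusted p = 0.00199 in limma) and by 0.31 in rIAPP (adjusted p = 0.005). The fructose bisphosphatases Fbp1 and Fbp2 were both under the median brightness. Fbp2 was higher by 0.44 in hIAPP (adjusted p = 0.0134) and by 0.89 in rIAPP (adjusted p = 0.000752) than in control. The hIAPP call was lost without control a, control b or hIAPP b (adjusted p up to 0.0713). Fbp1 was 0.54 higher in hIAPP at gene level (adjusted p = 0.000461), but the difference of its median level over exon-level probe sets was -0.13.

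Of 22 other genes of pyruvate entry and the TCA cycle, 19 were measured. In hIAPP 3 were higher and 1 lower than in control, in rIAPP 4 were higher, and between the clones 2 were lower in hIAPP, with medians of 0.04, 0.06 and -0.07. Pdp2, a phosphatase that switches pyruvate dehydrogenase on, rose by 0.31 in hIAPP (adjusted p = 0.0197 in limma, up to 0.104 without control a, control b or hIAPP a) and by 0.45 in rIAPP (adjusted p = 0.00567). Ogdhl, an oxoglutarate dehydrogenase-like subunit, rose by 0.28 in hIAPP (adjusted p = 0.00847) and by 0.35 in rIAPP (adjusted p = 0.00441). The nearest bright genes of Ogdhl had a median difference of 0.27 in hIAPP and 0.11 in rIAPP. With that median subtracted, the hIAPP difference was 0.01 and the call was lost. Exon-level medians also lost the hIAPP call of Ogdhl, and an ordinary linear model lost its calls in both clones. Me2, the mitochondrial malic enzyme, was 0.23 lower in hIAPP than in control (adjusted p = 0.0237, up to 0.109 without control a, control b or hIAPP b) and 0.32 lower than in rIAPP (adjusted p = 0.0089, up to 0.068 without rIAPP a or rIAPP b). Sdha, the flavoprotein of succinate dehydrogenase, differed by 0.08 in hIAPP and by 0.15 in rIAPP and was not called.

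Among 19 other shuttle enzymes and mitochondrial carriers, 14 were measured, and 1 was higher and 2 lower in hIAPP, and likewise 1 higher and 2 lower in rIAPP, than in control, with 1 higher in hIAPP than in rIAPP and medians of -0.03, -0.00 and 0.03. Beside Gpd1, Slc25a10, the dicarboxylate carrier, was 0.35 lower in rIAPP than in control (adjusted p = 0.00791 in limma, up to 0.0564 without control a, rIAPP a or rIAPP b), with a difference of -0.00 in hIAPP. Slc25a12, an aspartate-glutamate carrier of the malate-aspartate shuttle, was 0.34 lower in hIAPP than in control (adjusted p = 0.0129, up to 0.0819 without control a or hIAPP b). The other aspartate-glutamate carrier, Slc25a13, went the other way and was called higher in both IAPP clones than in control. Over the alternative settings its difference was 0.19 to 0.36 in hIAPP, with the call kept in 15 of 16. In rIAPP it was 0.11 to 0.24, with the call kept in 3 of 16. Of 8 pentose phosphate genes 6 were measured, with 2 higher and 1 lower in hIAPP, 2 higher and 1 lower in rIAPP, and 2 higher and 1 lower between the clones, and medians of 0.11, 0.06 and -0.04. Rpia, ribose phosphate isomerase, was the farthest from control, at 0.24 in hIAPP (adjusted p = 0.0225, up to 0.118 without control a, control b or hIAPP a) and at 0.57 in rIAPP (adjusted p = 0.000602). Pgls, a lactonase of the oxidative branch, was 0.22 lower in rIAPP than in control (adjusted p = 0.0478), a call lost without any array but control b (adjusted p up to 0.221). Rpe, an epimerase of the other branch, was 0.24 higher in rIAPP (adjusted p = 0.0317), a call lost without control a, control b, rIAPP a or rIAPP b (adjusted p up to 0.153).

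Hypoxia is a known inducer of many glycolytic genes, so other genes of the hypoxia response were read beside them. The list also held Hif1a, Epas1, Arnt and Vhl, regulators of the response. Of 20 listed, 19 were measured, and 8 were higher and 3 lower in hIAPP, and 11 higher and 2 lower in rIAPP, than in control. Vhl was among those called higher in each clone. Between the clones 5 were lower in hIAPP, and the medians were 0.13, 0.21 and -0.09. Over all genes, 10.1% were called higher and 8.93% lower in hIAPP, and 8.7% higher and 7.3% lower in rIAPP, than in control. Between the clones 5.56% of all genes were lower in hIAPP. Egln3, an oxygen-sensing prolyl hydroxylase, was at 9.57 and 9.47 in the hIAPP samples, 10.58 and 10.57 in the rIAPP samples, and 8.88 and 9.07 in the control samples. It rose by 1.60 in rIAPP (adjusted p = 1.74e-05 in limma) and by 0.54 in hIAPP (adjusted p = 0.00209), and the clones differed by -1.06 (adjusted p = 0.00016). Ddit4, a stress-induced inhibitor of mTOR signalling, rose by 0.44 in hIAPP (adjusted p = 0.00584) and by 0.59 in rIAPP (adjusted p = 0.00228). Mxi1, a Myc antagonist, fell by 0.83 in hIAPP (adjusted p = 7.66e-05) and by 0.45 in rIAPP (adjusted p = 0.00198).

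Of 17 transcriptional and glucose-responsive regulators, 16 were measured, with 1 higher and 1 lower in hIAPP, 3 higher and 1 lower in rIAPP, and 1 higher and 4 lower between the clones, and medians of -0.02, 0.11 and -0.04. Txnip, a thioredoxin-binding protein that glucose induces in beta cells, was at 11.14 and 11.25 in the hIAPP samples, 11.10 and 11.09 in the rIAPP samples, and 12.11 and 12.12 in the control samples. It fell by 0.92 in hIAPP (adjusted p = 4.05e-05 in limma) and by 1.02 in rIAPP (adjusted p = 3.66e-05), more than any member of the pathway set. Foxo1, a forkhead factor restrained by insulin signalling, rose by 0.65 in hIAPP (adjusted p = 0.000131) and by 0.54 in rIAPP (adjusted p = 0.000452). Ppara, a receptor of fatty acid oxidation under the median brightness, was 0.44 higher in rIAPP than in control (adjusted p = 0.0113, up to 0.0772 without control a, rIAPP a or rIAPP b), with a difference of -0.02 in hIAPP.

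**Figure D5:**
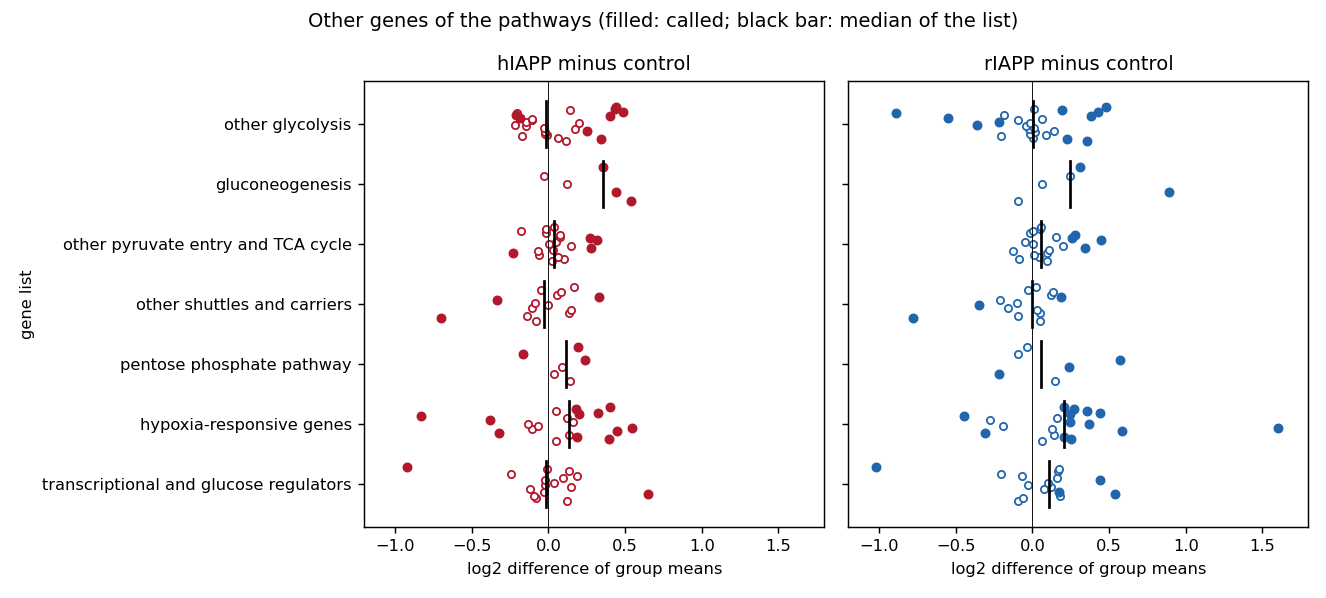
Difference from control on the log2 scale (x axis) of each measured gene of 7 further lists (y axis), in hIAPP (left) and rIAPP (right), filled where called. The black bar is the median of the list. The hypoxia-responsive list, which includes regulators of the response, has medians of 0.13 and 0.21, and most other lists have medians near 0 with single genes far from it.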

How the data were processed

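RNA of 6 samples was measured on 1-colour Affymetrix rat gene arrays. The authors deposited log2 values at gene level (36685 transcript clusters) and at exon level (220231 probe sets) of the same arrays, and per the submitters' processing notes they came from Affymetrix Expression Console with RMA, a method that subtracts background, equalises the arrays' distributions and summarises probes. The notes used here name no versions and no build. The number of arrays limits the precision.

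The log2 values were used as deposited. Per the platform's gene table, 18511 transcript clusters name 1 gene, 575 several and 17599 none; those with 1 were used, the brightest per gene, which left 18166 genes. Group means were fitted to all 6 arrays with limma 3.58.1 in R 4.3.3, with 3 residual and 4.39 prior degrees of freedom, with Benjamini-Hochberg adjustment over all genes and calls at an adjusted p under 0.05. The fit was tested on simulated data, in 10 draws with 200 changed genes at or above the median brightness in hIAPP against control. It recovered 19.85% of changes of 0.25, 83.43% of those of 0.5 and 98.33% of those of 1. Small changes were thus mostly missed there. Of the calls, 3.46% were false. The data gave 3462 calls in this comparison, many more than the genes changed in a draw. The adjustment depends on how many genes change, so these shares need not hold for the data. Exon-level probe sets at or above the median brightness were described with no test. Exon-level medians were the medians of the levels of all probe sets of a gene, bright or not, in each array. Promoters are from a RefSeq table of GRCr8. Its gene order also gave each gene's nearest neighbours among the measured genes at or above the median brightness, up to 25 on each side.

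The members, gene lists and cell-type markers were chosen with earlier results of these data known. Values per sample are given for members called with a difference of at least 0.3, and other members by counts, means or ranges. Up to 6 called genes per further list were taken by size of difference, beside Hk1, Hk2, Slc2a2, Ldha, Pcx and Sdha. The first 3 of each list are named. Slc16a1, Slc16a3 and Slc25a13 are named beside a gene of like function. Some genes are not reported here. The alternatives were an intensity trend, bright genes only, all transcript clusters, the mean of a gene's transcript clusters, median-centred arrays, exon-level medians, only the compared groups, an ordinary linear model, a replicate block, each array left out, and centring on neighbouring genes, the last chosen after seeing the data.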

Additional observations from a re-analysis of the deposited data

How the results depend on the processing

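Of the 23 calls among members, 4 held under all 16 alternative settings: Pfkfb2, Pfkfb3 and Idh2 in rIAPP and Ldhb in hIAPP, each against control. The other 19 were lost in at least 1. Exon-level medians kept 6 of the 23, all transcript clusters 9, leaving out either control array 10 and an ordinary linear model 12, while an intensity trend and bright genes only kept all 23. Calls over all genes fell in such settings too: in hIAPP against control from 19.1% to 7.75% with exon-level medians and to 7.75% with an ordinary linear model. Counts are given as members higher and lower in hIAPP against control, then in rIAPP against control, then in hIAPP against rIAPP. With an intensity trend 10 were higher in the first (38.9% of members called, beside 23.8% of all genes), and 4 higher and 7 lower in the last (30.6% beside 16.6%). Among bright genes 10 were higher in the second (37.1% beside 38.9%), and 4 higher and 6 lower in the last (28.6% beside 29.4%). Tested with all transcript clusters, which adds features with no gene name, they were 2 and 2, 2 and 1, and 1 and 1, while 7.02% of all features were called in the first against 11.1% of members. With exon-level medians they were 1 and 1, 2 and 1, and 1 and 0, with medians of 0.0221, 0.0646 and -0.0482. With only the compared groups 1 was higher between the clones, where 8.33% of members were called beside 9.8% of all genes. The ordinary linear model gave 2 lower in the first, 3 higher and 1 lower in the second, and 0 higher in the last. It called 19.4%, 11.1% and 5.56% of members, beside 7.75%, 5.07% and 2.77% of all genes. Median-centred arrays moved the medians against control to 0.0235 and 0.0297. Centring on neighbouring genes gave 1 lower between the clones and medians of 0.0219, -0.0016 and 0.0117.

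Samples of the same letter did not deviate together: same-lettered deviations correlated at -0.0408, 0.0006 and 0.0004 across genes. These values cannot tell whether samples of a letter were collected together. With the letter as a replicate block, 1 was lower in rIAPP against control, and 1 higher and 1 lower between the clones. The share called in rIAPP against control was 13.9% of members beside 14.1% of all genes. Between the clones it was 5.56% beside 9.92%.

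Leaving out each array gave 2 to 6 higher and 2 to 4 lower in hIAPP against control, with medians from 0.032 to 0.0494. In rIAPP it gave 2 to 6 higher and 1 to 2 lower, with medians from 0.0379 to 0.0557. Between the clones it gave 1 higher in every case and 1 to 2 lower, with medians from -0.0598 to -0.0037. A lone sample was assumed to vary like the other groups.

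In hIAPP against control, centring on neighbours reversed Glud1 to -0.021 and Tkt to -0.0726, and exon-level medians reversed Fbp1 to -0.134 and Taldo1 to 0.0257. The causes of these shifts were not tested. The 2 arrays per clone limit which differences can be called, and transgene and clone cannot be told apart.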
